A study of Drosophila melanogaster with 4 samples.

Results

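The regions described here are the stretches of the distal X chromosome that were called enriched for H3K9me2, histone H3 dimethylated at lysine 9, in head nuclei of adult Drosophila melanogaster. They were chosen by position alone, as every enriched region on the X with a midpoint at or below position 17422827 of FlyBase Release 5, which leaves out the 5 Mb nearest the centromere. This stretch of 17.4 Mb held 805 of the 6264 enriched regions of replicate 1, 1461 of the 10907 of replicate 2 and 1644 of the 10762 of the list that the authors made from both. The flies were Oregon-R (official name Oregon-R-modENCODE), wild type and at the stage labelled Mixed Adult, and chromatin immunoprecipitation with sequencing (ChIP-seq) used the antibody listed as H3K9me2-Ab2 (new lot). There were 2 ChIP libraries and 2 input libraries of this single genotype, with no treatment and no second condition. The labels give neither the sex of the flies nor whether the replicates came from separate populations, so the spread between replicates may be technical.

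H3K9me2 is laid down by histone methyltransferases and is bound by the chromodomain protein HP1a, and it marks the compact chromatin around centromeres, along chromosome 4 and near telomeres. Fly telomeres are capped by arrays of the retrotransposons HeT-A, TART and TAHRE, with subtelomeric repeats next to them, and genes placed there can be silenced. The remainder of a large arm is mostly gene-rich euchromatin, where the mark occurs in shorter, scattered blocks. The X also differs from the autosomes in that males carry a single copy, which the dosage compensation complex makes more active.

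Each list gives positions and a score per region, which is the authors' own value with no stated unit and is used here to describe and rank regions within a list. Where scores of different lists stand side by side, their scales may differ. Read depth is unknown for every library, so counting error cannot be given for any value. The number and length of called regions can depend on depth.

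H3K9me2 regions lay along the whole distal X and covered 1.94 times as much of it in replicate 2 as in replicate 1. Replicate 1 covered 13.5% of the distal X and replicate 2 covered 26.1%, with a mean of 19.8% ± 8.93 (SD, n = 2). The combined list covered 29.0%. In length this was 2.35 Mb for replicate 1, 4.55 Mb for replicate 2 and 5.05 Mb for the combined list. Replicate 1 listed 46.2 regions per Mb, replicate 2 listed 83.9 and the combined list 94.4. None of the lists held a region classed as depleted on the X.

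The distal X was the most covered of the 5 large arms in each list when 5 Mb next to the centromere were left out of every arm. Its share exceeded that of the other 4 arms pooled by 3.02 percentage points in replicate 1 (13.5% on the distal X, 10.5% on the other arms) and by 5.63 points in replicate 2 (26.1% and 20.5%). The mean difference was 4.33 points ± 1.85 (SD of the within-replicate differences, n = 2), larger than that SD. The distal X share itself had an SD of 8.93 points between replicates. An exact sign-flip permutation test across the replicates (two-sided) returned p = 0.5, the smallest possible with 2 of them. The nearest arm was 2R, where the difference was 1.31 points in replicate 1 and 2.93 points in replicate 2 (mean 2.12 ± 1.15). The farthest was 3R, with a mean difference of 5.82 points ± 2.11. Against 2L the mean was 4.76 ± 2.05 and against 3L it was 3.99 ± 1.94, with the same p of 0.5 in this exact test for each of the arms.

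The higher share came with more regions per length and not with longer ones. Replicate 1 listed 46.2 regions per Mb on the distal X and between 30.3 and 40.3 on the other distal arms, and replicate 2 listed 83.9 per Mb on the distal X and between 61.1 and 72.2 on the others. Median lengths overlapped, with 2146 bp on the distal X and between 2124 and 2396 bp on the others in replicate 1. In replicate 2 the medians were 2314 bp on the distal X and between 2199 and 2392 bp on the others.

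Regions of the distal X also had higher scores than regions of the other distal arms in each list. The median score was 0.91 on the distal X and 0.75 on the other arms in replicate 1, and 0.95 and 0.74 in replicate 2. The difference averaged 0.18 ± 0.04 (SD, n = 2) over 2 lists whose score scales may differ. The exact two-sided sign-flip test gave p = 0.5, again the smallest possible. This score comparison was chosen after its values were seen. In the combined list the medians were 0.66 and 0.52. The shift held across the distribution. The 10th percentile was 0.70 on the distal X and 0.54 on the other arms in replicate 1, and 0.62 and 0.44 in replicate 2. The 90th percentile was 1.27 on the distal X and 1.11 on the other arms in replicate 1, and 1.46 and 1.27 in replicate 2. Of the distal X regions, 83.5% in replicate 1 and 78.3% in replicate 2 scored above the median of the other arms.

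The score difference was present in each length class. Among regions under 2.5 kb the median was 0.83 on the distal X and 0.67 on the other arms in replicate 1, and 0.80 and 0.60 in replicate 2. Among regions of 5 to 10 kb it was 1.24 and 1.05 in replicate 1, and 1.39 and 1.21 in replicate 2. It was smallest at 10 kb and over, with 1.30 from 10 regions of the distal X and 1.26 from 56 of the other arms in replicate 1. The proximal 5 Mb of the X had medians of 0.95 in replicate 1 and 0.99 in replicate 2, beside 0.91 and 0.95 on the distal X.

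**Figure D1:**
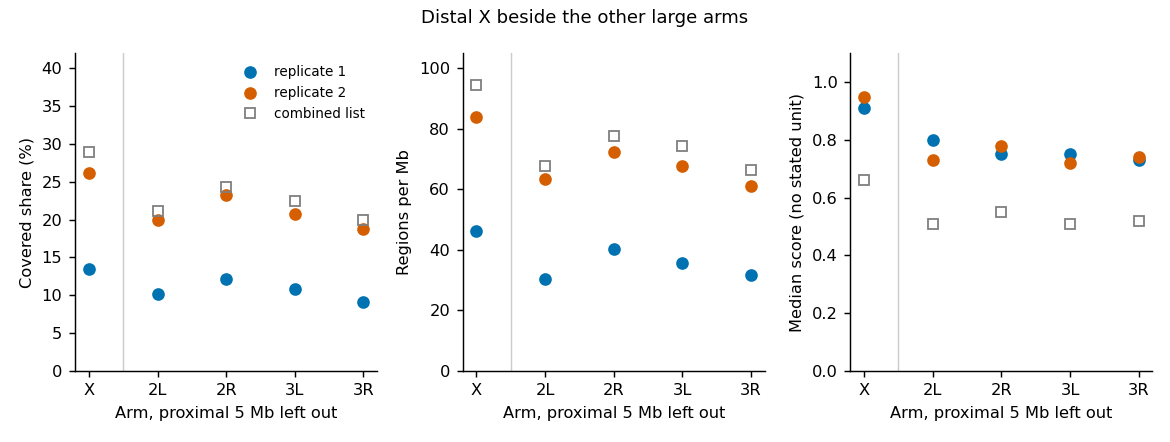
Covered share in percent (left), enriched regions per Mb (middle) and median score, which has no stated unit (right), for the distal X and the other large arms without their proximal 5 Mb. Each point is a deposited list; the distal X is the highest arm in all 3 panels in each list, with 13.5% and 26.1% covered in the replicates.

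The proximal 5 Mb of the same chromosome were covered more than the distal part. The share was 13.5% on the distal X and 21.8% in the proximal part in replicate 1, and 26.1% and 32.0% in replicate 2. The difference was -7.15 percentage points ± 1.70 (SD of the within-replicate differences, n = 2), larger in size than that SD. The same exact test gave p = 0.5. Each list held regions on either side of the limit between the parts, and a step in coverage there was not tested. Replicate 1 had its last inside regions at X:17271873-17273869 (score 0.82) and X:17405647-17407413 (0.80) and its first outside at X:17429295-17430687 (0.83) and X:17444225-17445841 (0.64). Replicate 2 had X:17361762-17363748 (0.85) and X:17406232-17407551 (0.72) inside, and X:17439127-17440565 (1.20) and X:17444128-17446005 (0.71) outside. The combined list had X:17411830-17413118 (0.53) and X:17413168-17415832 (0.48) inside, and X:17428956-17430882 (0.64) and X:17443994-17445984 (0.58) outside.

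Most regions of the distal X were short. Replicate 1 had a median length of 2146 bp, with the 25th and 75th percentiles at 1706 and 3289 bp. Replicate 2 had a median of 2314 bp, with these percentiles at 1779 and 3582 bp. For the combined list the median was 2239 bp and the percentiles were 1550 and 3543 bp. Regions under 2.5 kb made up 59.6% of replicate 1 and 55.2% of replicate 2, but 36.8% and 32.7% of their covered length. Replicate 1 had 10 regions of at least 10 kb, replicate 2 had 34 and the combined list had 51. The longest region measured 15431 bp in replicate 1, against 22292 bp for replicate 2 and 43063 bp for the combined list. The shortest was 1301 bp in each replicate and 1001 bp among combined regions, so the lists have different lower limits of length. Longer regions scored higher, with Spearman's rho of 0.78 in each replicate across regions of the same library.

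Gaps between neighbouring regions spread over a much wider range than the regions themselves. Replicate 1 had a median gap of 6166 bp, with the 25th and 75th percentiles at 2014 and 21249 bp. Replicate 2 had a median gap of 3898 bp, with these percentiles at 1339 and 9627 bp, and the combined list one of 3355 bp. Gaps under 1 kb made up 17.0% in replicate 1 and 21.2% in replicate 2, and gaps under 5 kb 45.5% and 57.2%. At the other end, 27 gaps of replicate 1 were at least 100 kb long, against 5 of replicate 2 and 2 of the combined list.

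**Figure D2:**
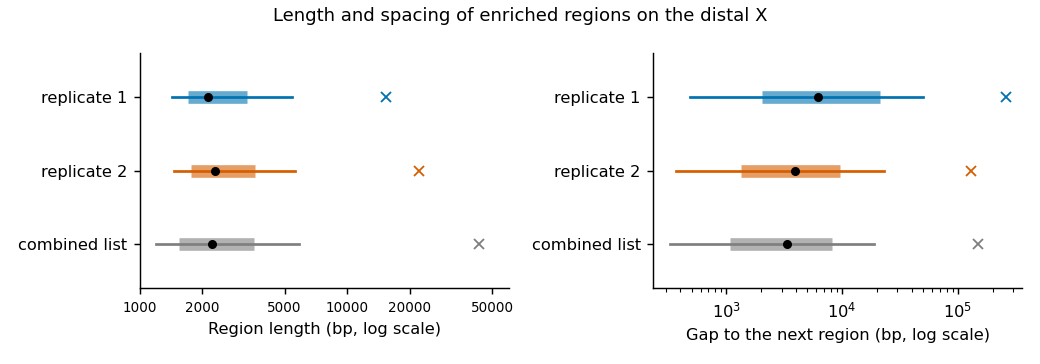
Length of enriched regions (left) and gap to the next region (right) on the distal X, both in bp on a log scale. Dots are medians, thick bars the 25th to 75th percentiles, thin lines the 10th to 90th percentiles and crosses the longest value. Median lengths are alike in the 3 lists, while the longest region differs. The median gap is 6166 bp in replicate 1 and 3898 bp in replicate 2.

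Neighbouring regions often lay close enough to form chains. With gaps of up to 5 kb joined, replicate 1 formed 439 chains, of which 265 held a single region, and replicate 2 formed 626, of which 316 held a single region. The longest chain lay in the same place in each list, within the first 400 kb of the X. It ran over X:279823-364098 (84.3 kb, 13 regions) in replicate 1, X:260449-364332 (104 kb, 21 regions) in replicate 2 and X:260562-364380 (104 kb, 18 regions) in the combined list. Enriched regions filled 72.7%, 73.0% and 89.9% of it in the same order. This chain was picked out after its values were seen.

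The 10 longest regions that both replicates shared started between 0.35 and 16.4 Mb, unevenly, with none starting between 2.37 and 7.76 Mb. The intersection of the replicate lists, with gaps of up to 1 kb joined, held 653 regions of 2183 bp in the median, 29 of them at least 10 kb long. The longest, X:15553590-15585621 (32.0 kb), consisted of 3 regions in replicate 1 with a mean score, weighted by overlapping length, of 1.28, 2 regions in replicate 2 with 1.55 and a single region in the combined list with 1.34. Next was X:7760427-7781435 (21.0 kb), 4 regions in replicate 1 (mean score 1.23) and a single region in replicate 2 (1.77). This block lay in 1 of the least covered Mb of the chromosome, as given further on. The third, X:16365538-16384457 (18.9 kb), went the other way, with 2 regions in replicate 1 (1.17) and 5 in replicate 2 (0.93).

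A pair of shared regions lay close together at X:2318630-2334661 (16.0 kb) and X:2374358-2388927 (14.6 kb). The first scored 1.18 in replicate 1 and 1.54 in replicate 2, and the second 1.11 and 1.60. Both belonged to the densest 100 kb of the distal X, from 2300 to 2400 kb, where replicate 1 covered 56.6%, replicate 2 covered 74.3% and the combined list 76.0%. The region at X:349635-364098 (14.5 kb) closed the chain in the first 400 kb and was a single region in replicate 1 (1.29) and 3 in replicate 2 (1.45). The remaining long shared regions were X:10774498-10787750 (13.3 kb), X:1328914-1341780 (12.9 kb), X:14080877-14093551 (12.7 kb) and X:9925705-9938330 (12.6 kb). Their scores lay between 1.16 and 1.38 in replicate 1 and between 1.31 and 1.99 in replicate 2. Together the 10 longest spanned 168 kb, 7.63% of the shared length.

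The highest scores were not in the longest regions. X:1521776-1529558 (7.78 kb) had the highest score of replicate 1, 2.72, and a region with nearly the same limits, X:1521734-1529512, scored 2.70 in replicate 2 and ranked second there. The region with the highest score of replicate 2, X:14176495-14179394 (2.90 kb), scored 3.20 and was absent from replicate 1. The next in replicate 2 were X:3309225-3315453 (2.5), X:322452-328504 (2.46) and X:6917334-6919598 (2.43), and the replicate 1 regions touching each had a mean score between 2.00 and 2.18. The next in replicate 1 were X:2505649-2509851 (2.53) and X:10991773-10995993 (2.48), which replicate 2 listed with 1.88 and 1.87. For X:14929089-14932792 and X:11087971-11096062 replicate 1 gave 2.42 and 2.35, and the replicate 2 regions touching them had a score of 0.59 and a mean of 0.84.

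Coverage along the distal X moved up and down several times and had no steady trend toward the centromere. In 1-Mb bins the share ran between 6.07% and 22.8% in replicate 1 and between 15.0% and 38.4% in replicate 2. The most covered bins were 16 to 17 Mb, with 22.8% in replicate 1 and 34.5% in replicate 2 (mean 28.6% ± 8.22, SD, n = 2), 15 to 16 Mb, with 21.1% and 35.4% (28.3% ± 10.1), and 1 to 2 Mb, with 15.7% and 38.4% (27.0% ± 16.1). The least covered were 3 to 4 Mb, with 6.07% and 15.0% (10.5% ± 6.33), 12 to 13 Mb, with 7.49% and 17.7% (12.6% ± 7.23), and 7 to 8 Mb, with 8.04% and 18.8% (13.4% ± 7.58). Each of these low bins came directly after a bin with a mean share between 23.7% and 25.1%. Within a replicate the highest mean bin exceeded the lowest by 16.8 percentage points in replicate 1 and 19.4 in replicate 2. Spearman's rho of share with position over the 18 bins was 0.18 in replicate 1 and 0.01 in replicate 2.

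The replicates ranked the bins alike although their levels differed. Replicate 2 was higher in each of the 18 bins, by a ratio between 1.51 in the bin from 16 to 17 Mb and 2.47 in that from 3 to 4 Mb. Spearman's rho between the replicates over the 18 bins was 0.93 and Pearson's r was 0.91, as a description across bins of the same 2 libraries. The Jaccard index, the length both cover over the length either covers, was between 31.7% in the bin from 12 to 13 Mb and 57.0% in that from 16 to 17 Mb. Median scores moved little, between 0.85 and 0.99 per bin in replicate 1 and between 0.86 and 1.05 in replicate 2.

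**Figure D3:**
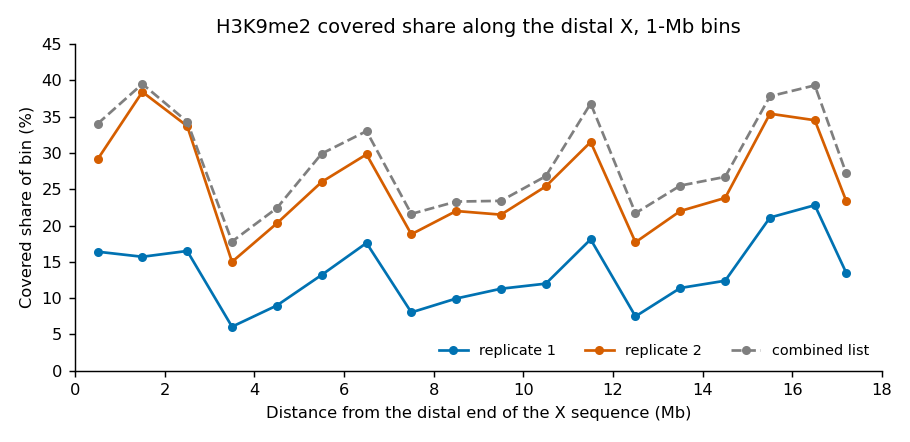
Share of each 1-Mb bin inside enriched regions, in percent, against distance from the distal end of the X sequence in Mb, for both replicates and the combined list; the last bin spans 0.423 Mb. The lines have similar shapes, with low bins at 3 to 4, 7 to 8 and 12 to 13 Mb, and replicate 2 above replicate 1 in all 18 bins. They part between the first bin and the next, where replicate 1 goes from 16.4% to 15.7% and replicate 2 from 29.1% to 38.4%.

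Long stretches without any enriched region in either replicate were few. The longest were X:3865589-3995397 (130 kb), X:9332245-9455475 (123 kb), X:9639756-9758611 (119 kb), X:5390321-5507161 (117 kb) and X:8660963-8761898 (101 kb), and these 5 were the only ones of at least 100 kb. Stretches of 50 kb or more numbered 36 and made up 15.4% of the distal X. The combined list had regions inside 4 of the 5 longest, over between 0.0614% and 3.81% of their length, and none inside the fifth. Of the 175 bins of 100 kb, 12 held no covered base in replicate 1 and 1 held none in replicate 2.

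At the telomeric end the mark was dense in the first 50 kb and sparse from 100 to 200 kb, ahead of the long chain that reached into the bin from 300 to 400 kb. The first region started at position 271 in replicate 1, at 71 in replicate 2 and at 68 in the combined list, next to the first base of the X sequence. How far that base lies from the telomere itself is not given in the sources used here. Of the first 50 kb, replicate 1 covered 42.2% and replicate 2 covered 46.8% (mean 44.5% ± 3.24, SD, n = 2). From 50 to 100 kb the mean was 19.9% ± 1.97, from 100 to 150 kb 6.82% ± 2.85 and from 150 to 200 kb 6.06% ± 4.23. The step between the first 100 kb, with 32.2% ± 0.632, and the next 100 kb, with 6.44% ± 0.687, was larger than the spread between replicates. This split was chosen after the values were seen, and steps between other neighbouring stretches of 100 kb were not compared.

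The first 200 kb as a whole did not differ from the remainder of the distal X beyond the spread between replicates. The share was 18.9% in the first 200 kb and 13.4% in the remainder in replicate 1, and 19.8% and 26.2% in replicate 2. The difference was 5.45 percentage points in replicate 1 and -6.39 in replicate 2, and averaged -0.471 ± 8.37 (SD, n = 2), with p = 1.0 by the exact sign-flip test. The direction depended on the window: the difference averaged 12.5 points ± 8.35 for the first 100 kb and 8.86 ± 3.08 for the first 500 kb (SD, n = 2, exact p = 0.5 each). In the combined list the shares were 28.5% and 29.0%. The sign depended on the replicate: the first 200 kb had nearly the same share in both lists, and the remainder did not. The ratio of replicate 2 to replicate 1 was 1.03 in the first 100 kb, against a median of 2.01 over the 163 bins of 100 kb with any region in replicate 1. Only 4 of these 163 bins, the first included, had a ratio that low. By share the first 100 kb ranked 12th of 175 bins in replicate 1 and 57th in replicate 2. The second 100 kb ranked 120th in replicate 1 and 154th in replicate 2.

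Replicate 1 listed 15 regions in the first 200 kb, 13 of them (86.7%) touched by replicate 2, against 95.0% over the distal X and 93.6% over all 13 sequences. Replicate 2 listed 17, of which 14 (82.4%) were touched by replicate 1, against 48.0% over the distal X and 60.9% over all sequences. Their Jaccard index was 59.6%. The first was X:271-1949 in replicate 1 (score 1.24) and X:71-1985 in replicate 2 (1.53). The block that followed was X:5656-9273 (1.04) and X:9586-13187 in replicate 1, whose score of 2.04 was the highest of its first 200 kb. In replicate 2 it was X:5666-9523 (1.22), X:9583-10970 (1.02) and X:11054-13172 (1.69), and the combined list joined it into X:5078-13292 (1.24).

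Farther in, X:15156-16456 (1.73) and X:16522-18120 (0.80) of replicate 1 stood against X:15013-16617 (1.14) of replicate 2, and X:20780-23233 (1.02) against X:20314-23468 (1.31). Next, replicate 1 had X:38711-40483 (0.52), X:41921-44459 (1.03) and X:47480-51374 (0.95), and replicate 2 had X:40858-45554 (1.23), X:47401-48826 (0.84) and X:49772-51132 (0.98). The pairs X:63554-65831 (1.08) with X:63670-65646 (1.00) and X:69225-70539 (0.91) with X:68875-71029 (1.00) were in both replicates. The last dense block was X:92242-96330 in replicate 1 (1.34) and X:92345-96343 in replicate 2 (1.75). Beyond it both listed a pair of matching regions, X:137977-140143 and X:167093-168629 in replicate 1 (0.79 each), and X:137913-140315 (1.09) and X:166306-169483 (1.37) in replicate 2.

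The lists went apart at a few places of this end. X:98398-102254 of replicate 1, 3.86 kb long with a score of 1.48, was absent from replicate 2 and from the combined list. X:38711-40483 of replicate 1 (0.52) was also absent from replicate 2, whereas the combined list covered 98.0% of it. X:28981-30482 (0.87), X:33472-34953 (0.68) and X:157309-158657 (0.67) were in replicate 2 and not in replicate 1. The combined list held 21 regions in the first 200 kb, and a replicate touched 15 of them (71.4%). The share was 85.8% over the distal X and 88.5% over all sequences. The 6 that touched neither replicate were X:3318-4776 (0.92), X:30662-31662 (0.58), X:56680-57742 (1.72), X:89594-91626 (0.62), X:175026-176770 (0.43) and X:180110-181772 (0.50).

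**Figure D4:**
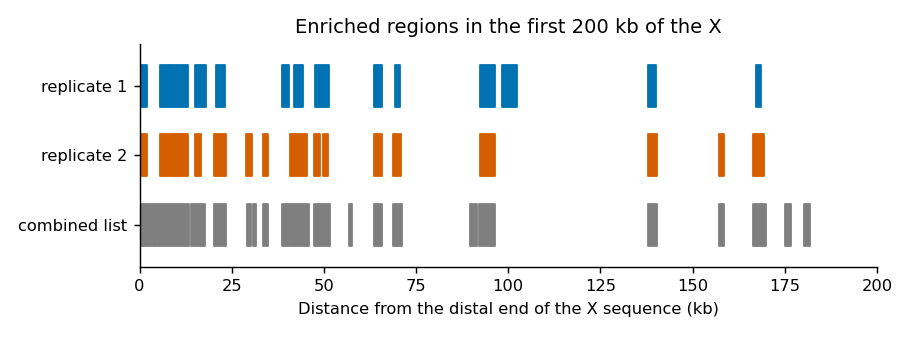
Enriched regions in the first 200 kb of the X in each list, drawn to scale against distance from the distal end of the sequence in kb; each bar is a region. Regions crowd into the first 100 kb, where the mean share is 32.2%, and are few from 100 to 200 kb, where it is 6.44%.

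Nearly all distal X regions of replicate 1 were found again in replicate 2, whereas fewer of those of replicate 2 were in replicate 1. Of the 805 regions of replicate 1, 765 (95.0%) were touched by replicate 2 by at least 1 bp, against 93.6% of all regions of that list over the 13 sequences. Of the 1461 regions of replicate 2, 702 (48.0%) were touched by replicate 1, against 60.9% over all sequences. In length the replicates shared 2.15 Mb, which was 91.6% of replicate 1 and 47.3% of replicate 2, and the Jaccard index was 45.3%. On the other distal arms the index was between 46.4% and 49.3%.

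The share of regions touched rose with region length. A longer region meets the limit of 1 bp more easily and tended to score higher, so length by itself was not tested. Of the replicate 2 regions under 2.5 kb, 199 of 807 (24.7%) were touched by replicate 1, of those of 2.5 to 5 kb 69.6%, of those of 5 to 10 kb 96.4%, and of those of at least 10 kb 34 of 34. The corresponding shares on the other distal arms were 21.7%, 73.0%, 96.6% and 100%. In replicate 1 the share was 93.3% under 2.5 kb and 96.7% from 2.5 to 5 kb, and all 76 regions of 5 to 10 kb and all 10 longer ones were touched. On the other distal arms these shares were 96.7%, 99.7%, 100% and 100%.

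**Figure D5:**
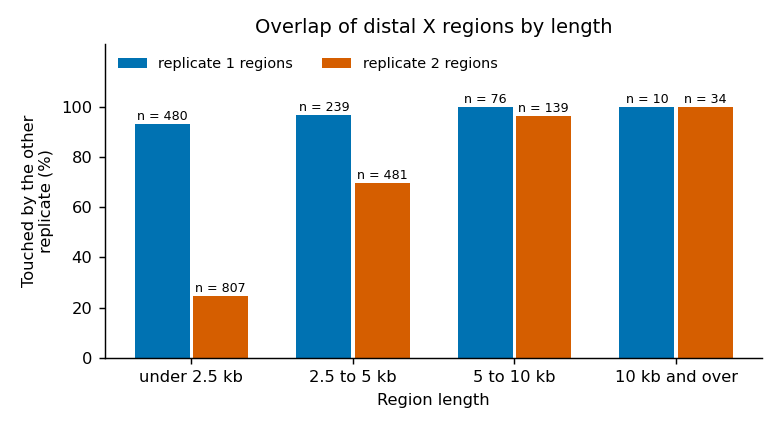
Share of distal X regions touched by the other replicate by at least 1 bp, in percent, by region length, with the number of regions above each bar. Replicate 1 regions are touched at 93.3% or more in each class, whereas replicate 2 regions range between 24.7% under 2.5 kb and 100% at 10 kb and over.

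The 759 regions of replicate 2 without a counterpart were shorter (median 1870 bp) and scored lower (median 0.82) than those with one (3278 bp and 1.15). Of these, 292 (38.5%) lay within 5 kb of a replicate 1 region and 159 (20.9%) more than 20 kb from any. The longest were X:2560179-2567862 (7.68 kb, score 0.96), X:17340045-17347183 (7.14 kb, 1.29), X:1366037-1372903 (6.87 kb, 1.35), X:1064635-1070764 (6.13 kb, 1.18) and X:10384298-10389731 (5.43 kb, 1.24). By bin, their share of the replicate 2 regions was highest from 3 to 4 Mb (33 of 50), 12 to 13 Mb (46 of 70) and 1 to 2 Mb (76 of 116), against 52.0% over the distal X.

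The 40 regions of replicate 1 without a counterpart were 4.97% of its distal X regions, against 2.03% on the other distal arms. The share touched differed between the distal X and the other arms by -2.94 percentage points in replicate 1 (95.0% and 98.0%) and by 1.34 points in replicate 2 (48.0% and 46.7%). The directions were opposite (mean -0.801 ± 3.03, SD, n = 2, exact two-sided sign-flip p = 1.0). Their median length was 1722 bp and their median score 0.79, against 2185 bp and 0.92 for the touched ones, and 29 of the 40 lay within 5 kb of a replicate 2 region. The longest were X:3041644-3046094 (4.45 kb, score 1.13), X:98398-102254 of the first 200 kb, X:11847504-11850909 (3.41 kb, 0.79), X:15904397-15907502 (3.11 kb, 0.85) and X:4276860-4279622 (2.76 kb, 1.22). The bins with the most were 12 to 13 Mb, with 5 of 32, and 0 to 1 Mb, with 5 of 59.

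Where a region of one replicate met a single region of the other and the reverse, the limits were close and replicate 2 was usually the longer. There were 560 such pairs. The start differed by a median of 342 bp and the end by 351 bp, and in 218 pairs (38.9%) both ends lay within 500 bp of each other. The replicate 2 region was longer in 483 pairs (86.2%), with a median length ratio of 1.32. The listed score was the larger in replicate 2 in 462 pairs (82.5%), with medians of 1.14 in replicate 2 and 0.90 in replicate 1, on scales that may differ. Over the pairs, Spearman's rho of the scores was 0.63 and Pearson's r 0.68, as a description over regions of the same 2 libraries. Beyond these pairs, 89 regions of replicate 2 touched several regions of replicate 1, up to 4, and 35 regions of replicate 1 touched several of replicate 2, up to 3.

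The combined list held almost everything the replicates shared on the distal X and added short regions of its own. It took in 99.99% of what they shared, 80.1% of what only replicate 1 covered and 91.4% of what only replicate 2 covered. Of its 1644 regions, 1410 (85.8%) were touched by a replicate, against 88.5% over all sequences. The other 234 measured 1198 bp and scored 0.57 in the median, against 2465 bp and 0.69 for the touched ones. Of these, 145 (62.0%) were shorter than 1301 bp, the shortest region of either replicate list. Among all combined regions of the distal X, 223 (13.6%) were shorter than that. The longest combined regions that touched neither replicate were X:5780802-5783826 (3.02 kb, score 0.41), X:11775096-11777866 (2.77 kb, 0.61), X:17413168-17415832 (2.67 kb, 0.48), X:16759230-16761848 (2.62 kb, 0.44) and X:4709298-4711716 (2.42 kb, 0.88).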

How the data were processed

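H3K9me2 ChIP-seq regions of 2 ChIP libraries were analysed. The input libraries have no values of their own here. Per the submitters' processing notes, Bowtie 0.12.7 aligned the reads. Region positions are on FlyBase Release 5, per the file headers. Which caller and threshold were used, and how the replicate set was merged, is not given in the sources used here. The deposited score of each region has no stated unit. Enriched rows on the X were kept by midpoint, ends past a sequence end were set to that end (1 on the X in replicate 2 and 1 in the combined list), and covered shares, gaps and overlaps were computed with Python 3.11.15 and numpy 2.4.6 and tested on simulated lists. Gene names were not assigned, since the gene table at hand is of another release. Comparisons over replicates used exact two-sided sign-flip tests, and regions are not replicates. The members, windows and rules for named regions were chosen with earlier results of these data known. The score comparison and its alternatives, the chains and the 100-kb steps were chosen after their values were seen. Named regions are the 10 longest shared ones, those of the first 200 kb, the 5 longest gaps, the 5 longest without a counterpart in each replicate or in both, the 5 with the highest score in each replicate, and 2 on either side of the limit.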

Additional observations from a re-analysis of the deposited data

How the results depend on the processing

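No paired analysis was possible because the input libraries have no region list here, so a single group of 2 replicates remains. The distal X had the highest share of the 5 distal arms in 18 of 18 combinations of list and setting, and its differences from the other arms and from the proximal X, as well as its higher median score, kept their sign in each alternative run. Not all 18 could have differed from the reported order. Leaving out regions under 1 kb repeated the reported shares, as did equal covered length for replicate 1 and the combined list. In replicate 2, equal covered length set the distal X share to the 13.5% of replicate 1, so only the shares of the other arms could vary. Sizes moved: the score difference of 0.18 was 0.02 with the better-scoring 50% of regions, where the selection removes the lower scores, and the difference of 4.33 points from the other arms was 6.76 with gaps up to 5 kb joined and 7.25 in the combined list. Selection by score favours the distal X by itself, since its regions score higher. Leaving out regions under 1 kb changed no value, as no list holds any on the distal X. With 1 replicate left out, the values were 13.5% to 26.1% covered, 3.02 to 5.63 points over the other arms, -8.35 to -5.94 points against the proximal X, a median length of 2146 to 2314 bp, a median gap of 3898 to 6166 bp, a highest minus lowest bin of 16.8 to 19.4 points, and a score difference of 0.16 to 0.21. The combined list gave 29.0% covered. The first 200 kb minus the remainder, -0.471 points, turned to 2.08 with the better-scoring 50% of regions, 2.11 at equal covered length, 2.29 with gaps up to 5 kb joined, 12.5 with a window of 100 kb and 8.86 with 500 kb, and ran between -6.39 and 5.45 with a replicate left out; the windows differ in the sequence they hold, and for the other settings the cause was not tested. The Jaccard index of 45.3% was 40.8% with the better-scoring 50%, 51.8% at equal covered length and 46.0% with joined gaps. The touched share of replicate 1 was 92.0%, 59.8% and 96.4% in the same order and 92.3% with at least 50% of the region shared; that of replicate 2 was 42.1%, 83.9%, 56.2% and 40.0%. Equal covered length removes replicate 2 regions by construction. Joined gaps gave medians of 4336 bp for length and 15098 bp for gaps, as joining itself does. Bins of 500 kb and 2 Mb gave a highest minus lowest share of 27.9 and 10.9 points. Depth is unknown for every library, and its bearing on the count of short regions was not tested.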
